A study of Mus musculus with 2 samples.

Results

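Bidirectional protein-coding promoters are the stretches between 2 protein-coding genes that lie head to head on opposite strands and are transcribed away from each other. A pair was counted when the minus-strand gene lay to the left and the annotated 5′ ends of both genes, taken from GENCODE vM21 on GRCm38, were at most 1000 bp apart. The rule itself uses annotation alone. The rule found 754 pairs with 1487 genes, which are 6.78% of the 21938 protein-coding genes, and 21 of these genes belonged to more than 1 pair. Each pair was studied as 1 region, the span between both 5′ ends plus 500 bp on each side, and the regions had a median length of 1130 bp. Because some regions overlapped, the 754 pairs covered 733 separate stretches, and 3 pairs (Hdlbp/Sept2, Arl16/Hgs and Chtf8/Utp4) were listed 2 times since the annotation holds 2 gene models of the same name. The 20439 other protein-coding promoters, 500 bp to each side of their 5′ end, served for comparison, and 12 genes were left out of them because their window overlapped a bidirectional region.

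Peaks of ATAC-seq were listed for the organ of Corti, the sensory epithelium of the cochlea, of neonatal mice. ATAC-seq uses the Tn5 transposase, which inserts sequencing adapters into open chromatin, so that a peak marks a stretch of accessible DNA. The study compared WT and Bmi1-/- mice to learn how chromatin accessibility differs without Bmi1, a subunit of the Polycomb repressive complex PRC1 that helps to keep genes silent. The Bmi1-/- mice carried the tm1Brn allele in all cells, came from the line FVB.129P2-Bmi1tm1Brn/MvlJ after repeated backcrossing to C57BL/6J, and were compared with WT littermates. Tissue was taken on postnatal day 2 and pooled from 10 mice for each library, and there was 1 library per genotype.

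In a bidirectional promoter, transcription starts on both sides of a shared nucleosome-depleted stretch, so that factors bound between the genes can act on both of them. Such promoters are known to be rich in CpG islands and poor in TATA boxes, and they often serve housekeeping genes, among them genes for DNA repair, the cell cycle, mitochondria and protein folding. They are therefore usually open in most cell types.

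The DNA between the 5′ ends is short in most pairs: the distance had a median of 130 bp, quartiles of 67 and 240 bp and a range of 1 to 987 bp, and it was at most 300 bp in 618 pairs. The sequences below are the bases between the 5′ ends of 9 pairs, on the plus strand of GRCm38, so that the minus-strand gene begins just before the first base and the plus-strand gene just after the last. They are shown because the pairs stand for the patterns described afterwards. Npc2/Isca2 and Ccnb1ip1/Parp2 had some of the strongest peaks in both lists. Hdlbp/Sept2, Fkbp15/Slc31a1 and Setd3/Ccnk were among the strongest in the Bmi1-/- list. Tfb2m/Cnst had a peak only in the Bmi1-/- list, Tfpt/Prpf31 and Tsc2/Nthl1 only in the WT list, and Elmod3/Retsat in neither. Capitals mark matches to the 8 short motifs listed further on, which here are GGGCGG (SP1; CCGCCC on the other strand) and CCAAT (NFY; ATTGG on the other strand).
Npc2/Isca2, chr12:84773153-84773250: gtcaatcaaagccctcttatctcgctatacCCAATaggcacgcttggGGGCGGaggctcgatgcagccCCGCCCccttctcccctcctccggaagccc
Ccnb1ip1/Parp2, chr14:50807733-50807840: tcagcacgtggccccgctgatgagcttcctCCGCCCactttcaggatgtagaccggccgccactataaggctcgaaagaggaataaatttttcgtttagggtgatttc
Hdlbp/Sept2, chr1:93478816-93478963: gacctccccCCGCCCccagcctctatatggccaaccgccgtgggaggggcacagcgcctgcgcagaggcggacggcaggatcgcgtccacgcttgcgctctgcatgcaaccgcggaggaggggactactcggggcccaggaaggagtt
Fkbp15/Slc31a1, chr4:62360549-62360726: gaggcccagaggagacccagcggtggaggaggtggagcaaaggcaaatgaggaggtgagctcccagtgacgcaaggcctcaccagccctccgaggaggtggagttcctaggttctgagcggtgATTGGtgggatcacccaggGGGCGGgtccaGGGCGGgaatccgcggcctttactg
Setd3/Ccnk, chr12:108179315-108179578: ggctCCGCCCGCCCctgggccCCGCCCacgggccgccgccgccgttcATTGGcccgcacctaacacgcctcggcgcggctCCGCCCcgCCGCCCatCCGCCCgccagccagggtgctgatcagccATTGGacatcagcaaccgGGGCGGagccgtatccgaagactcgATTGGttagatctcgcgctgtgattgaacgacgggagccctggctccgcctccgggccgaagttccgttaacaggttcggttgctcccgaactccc
Tfb2m/Cnst, chr1:179546268-179546369: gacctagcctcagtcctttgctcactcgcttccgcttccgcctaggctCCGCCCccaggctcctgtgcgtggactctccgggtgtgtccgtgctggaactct
Tfpt/Prpf31, chr7:3629930-3629984: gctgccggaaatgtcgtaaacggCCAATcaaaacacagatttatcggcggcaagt
Tsc2/Nthl1, chr17:24632631-24632679: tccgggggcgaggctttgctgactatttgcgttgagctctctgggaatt
Elmod3/Retsat, chr6:72598414-72598474: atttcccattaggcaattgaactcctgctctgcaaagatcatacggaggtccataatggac

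The 264 bases between Setd3 and Ccnk had the most matches of these 9, with 10, and held 33 CpG dinucleotides at a GC content of 70.1%. The 61 bases between Elmod3 and Retsat held no match and 1 CpG, at a GC content of 44.3%. The 98 bases between Npc2 and Isca2 held 2 SP1 matches and 1 NFY match. Tsc2/Nthl1, with 49 bases between the genes, had no match either. Over all 754 pairs, the DNA between the 5′ ends held an SP1 match in 406 (53.8%) and an NFY match in 294 (39.0%).

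Counting peaks on chromosomes 1 to 19, X and Y, 77596 of the 77826 peaks labelled WT and 100431 of the 100668 labelled Bmi1-/- were used, and the lists are called the WT list and the Bmi1-/- list by these labels. The −log10 p of a peak measures its pileup of reads at the summit against the local background, and the −log10 q is that value adjusted over its library. The peak names contradict the labels: 100% of the names in the list labelled WT carry the prefix of the knockout, and 100% of those in the list labelled Bmi1-/- carry that of the wild type. GEO's labels were followed, so every statement on direction rests on them. At the promoter of Bmi1 itself the list labelled WT had 1 peak (−log10 p 3.96) and the list labelled Bmi1-/- had 2 peaks (6.99 for the stronger), and a peak list cannot show whether the gene is disrupted. The lists contain no read totals, and the local background solved from the deposited values was most often 6.32 reads in the WT list and 8.04 in the Bmi1-/- list, so that coverage was the higher in the Bmi1-/- library. Of the peaks, 52.4% and 62.8% had a q-value below 0.05. Of 10 hair cell markers, 4 had a promoter peak in the WT list and 5 in the Bmi1-/- list (Atoh1, Espn and Myo6 in both), while Myo7a, Gfi1, Otof and Tmc1 had none. These counts are near the shares of all protein-coding promoter regions, of which 36.5% and 49.1% had a peak. Of 10 supporting cell markers 7 and 8 did, with Sox2, Jag1, Lgr5, Gjb2 and Cdkn1b in both. The counts were 4 and 2 of 6 for neurons, 1 and 2 of 5 for glia, 2 and 1 of 5 for mesenchyme, 2 and 1 of 5 for endothelium, and 0 and 0 of 5 for blood cells and macrophages. The part of these cell types in the results was not tested. In such bulk tissue, a site open in fewer cells and a site less open per cell cannot be told apart.

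Most bidirectional promoters were accessible. A peak overlapped 529 of the 754 regions in the list labelled WT, which is 70.2% (exact binomial 95% interval, 66.8% to 73.4%), against 35.3% of the other promoters (34.6% to 35.9%) and 36.5% of all 21193 promoter regions. In the list labelled Bmi1-/- it was 659 of 754, or 87.4% (84.8% to 89.7%), against 47.7% of the others (47.1% to 48.4%) and 49.1% of all. The differences, bidirectional minus other, were 34.9 percentage points (Newcombe 95% interval, 31.5 to 38.1) and 39.7 points (37.0 to 41.9). All such intervals cover counting error only, since each genotype had 1 library, and no test between the genotypes was made. Of the pairs, 509 (67.5%) had a peak in both lists, against 31.5% of all promoters. A peak only in the list labelled Bmi1-/- was found at 150 pairs (19.9%), close to the 17.7% of all promoters. The difference from the other promoters, 2.30 points, had an interval that included 0 (-0.44 to 5.35). These shares have unlike room, since a smaller part of the pairs lacked a WT peak. Among pairs without one, 150 had a Bmi1-/- peak and 75 had none, against 3595 and 9633 of the other promoters. Only 20 pairs (2.65%) had a peak in the WT list alone, against 5.04% of all, and 75 (9.95%) had none in either list, against 45.8% of all. Strong peaks, which had to reach 5 in −log10 q, were found at 81 pairs (10.7%) in the WT list, where 3.16% of all promoters had one, and 311 pairs (41.2%) in the Bmi1-/- list, where 14.5% did.

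The share was high in every class of distance within the rule. The 1901 other promoters that belong to divergent pairs 1 to 10 kb apart had a peak in 33.6% of cases in the WT list (31.4% to 35.7%) and in 46.4% in the Bmi1-/- list (44.2% to 48.7%), near the values of all other promoters. Head-to-head pairs whose 5′ ends cross, so that the transcribed regions overlap, are not members. There are 446 of them, and their regions had a peak in 69.3% (64.8% to 73.5%) and 86.8% (83.3% to 89.8%), near the values of the members. Within the members, the share ran from 62.9% (44 of 70 pairs 501 to 1000 bp apart) to 80.3% (53 of 66 pairs 301 to 500 bp apart) in the WT list, and from 82.8% (106 of 128 pairs 1 to 50 bp apart) to 93.9% (62 of 66, again 301 to 500 bp) in the Bmi1-/- list. Neighbouring classes had overlapping intervals. Just outside the rule, 46 pairs 1001 to 1500 bp apart had a peak in 23 and 30 cases. Strong peaks were most frequent at 301 to 500 bp, in 14 of 66 pairs (21.2%) and 38 of 66 (57.6%), and at 51 to 100 bp they were found in 11 of 184 (5.98%) and 64 of 184 (34.8%).

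**Figure D1:**
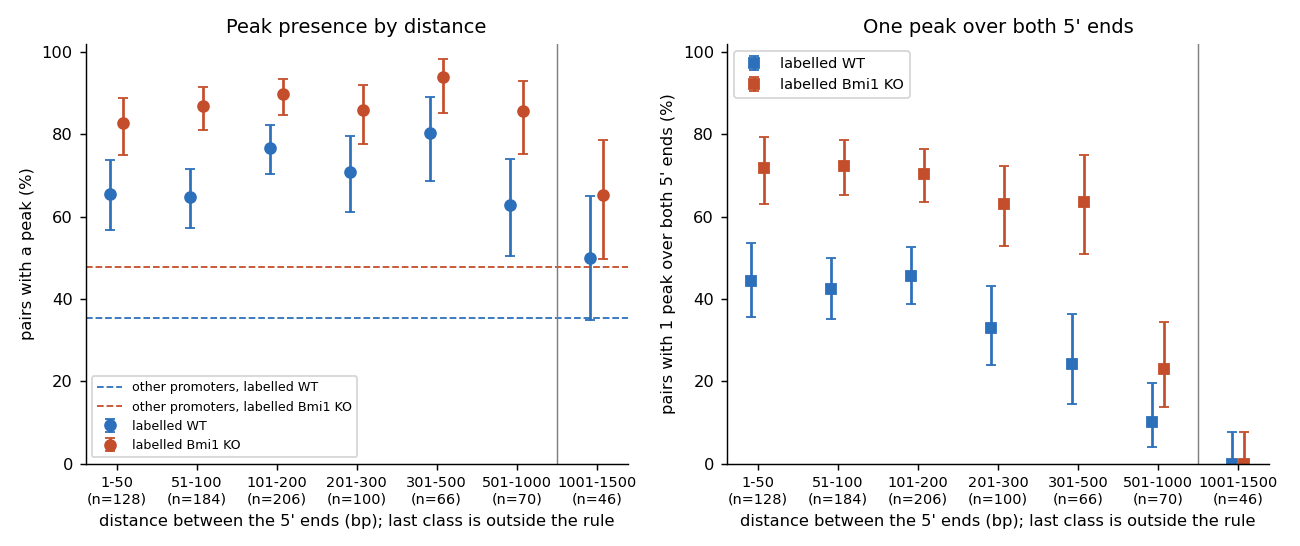
Share of bidirectional promoters with a peak (left, circles) and with 1 peak over both 5′ ends (right, squares), in percent of the pairs in each class of distance between the 5′ ends in bp, for the lists labelled WT (blue) and Bmi1-/- (orange). Bars are exact binomial 95% intervals, dashed lines are the other promoters (35.3% and 47.7%), and the class right of the grey line lies outside the rule; all classes of the rule lie above the dashed line of their list.

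CpG content separated the bidirectional promoters from the others, and a smaller difference remained among CpG-rich promoters. Over 1 kb, a CpG observed/expected ratio of at least 0.6 with a GC content of at least 50% was found at 628 bidirectional promoters (83.3%) and at 8511 others (41.6%). The median ratio was 0.773 against 0.511 and the median GC content 60.2% against 54.2%. Among these CpG-rich promoters, 76.0% of the bidirectional ones (477 of 628) and 64.0% of the others had a peak in the WT list, a difference of 12 points (8.37 to 15.3). In the Bmi1-/- list the shares were 91.7% (576 of 628) and 83.6%, a difference of 8.10 points (5.56 to 10.2). Among the promoters that were not CpG-rich, 41.3% of the bidirectional ones (52 of 126) had a WT peak, against 14.8% of the others. In the Bmi1-/- list it was 65.9% (83 of 126) against 22.1%. These differences were larger, but the sets differed in CpG ratio within this class. By classes of the ratio, 56.2% of 80 bidirectional promoters between 0.4 and 0.6 had a WT peak (44.7% to 67.3%), against 33.2% of 2909 others. Between 0.8 and 1.0 the values were 79.3% of 299 and 70.9% of 3485. Under 0.2 and between 0.2 and 0.4 lay only 13 and 22 members, against 4962 and 3747 others. In the WT list 1 (7.69%) and 2 (9.09%) of these members had a peak, near the 5.22% and 12.5% of the others. In the Bmi1-/- list it was 2 (15.4%) and 8 (36.4%), against 7.13% and 18.3%.

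**Figure D2:**
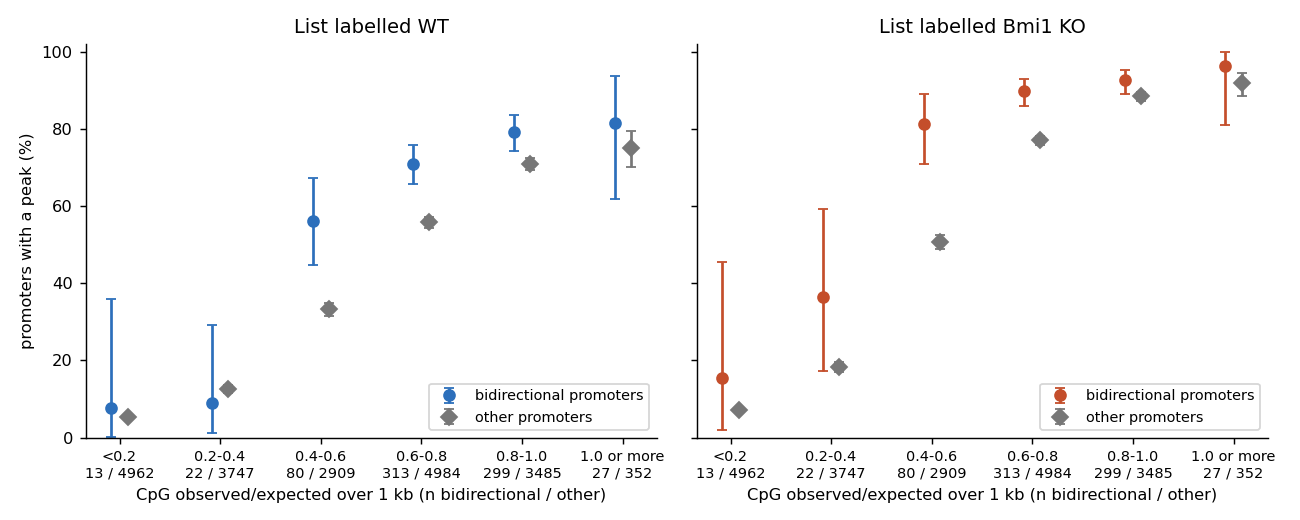
Share of promoters with a peak, in percent, by the CpG observed/expected ratio over 1 kb, for bidirectional promoters (coloured circles) and other promoters (grey diamonds), with the list labelled WT on the left and that labelled Bmi1-/- on the right; bars are exact binomial 95% intervals. The share rose with the ratio in both sets, and the bidirectional promoters lay above the others in each class from 0.4 to 1.0.

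Where a peak was called, its median strength and width were higher than at other promoters. Unlike presence, these values were not compared within CpG classes, and the regions of the pairs were the longer. The strongest peak of each region had a median −log10 p of 6.07 in the WT list (quartiles 4.69 and 8.12) against 5.39 at the others, and of 8.40 in the Bmi1-/- list (5.88 and 11.8) against 6.42. It belonged to the strongest 10% of its list at 49% of the 529 pairs with a WT peak, against 33.8% of the other promoters with one. In the Bmi1-/- list this was 65.9% of 659 against 48.3%. The median fold enrichment was 2.87 against 2.73 in the WT list and 3.02 against 2.74 in the Bmi1-/- list. The strongest peaks had a median width of 427 bp (quartiles 296 and 653 bp) against 367 bp in the WT list, and of 685 bp (430 and 969 bp) against 525 bp in the Bmi1-/- list. Over all peaks the median width was 260 and 277 bp. A peak of at least 1 kb was found at 27 pairs (5.10% of those with a peak) in the WT list and at 152 (23.1%) in the Bmi1-/- list, against 2.75% and 12.2% of the other promoters with a peak.

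Width rose with strength, and the difference in width was small at like strength. At a −log10 p of 4 to 6 the medians were 370 bp for bidirectional and 338 bp for other promoters in the WT list, and 421 and 399 bp in the Bmi1-/- list. At 6 to 10 they were 525 and 482 bp, and 718 and 614 bp. At 10 or more the WT list gave 638 bp in both sets, and the Bmi1-/- list 924 and 842 bp. The quartiles of the sets overlapped in every class.

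**Figure D3:**
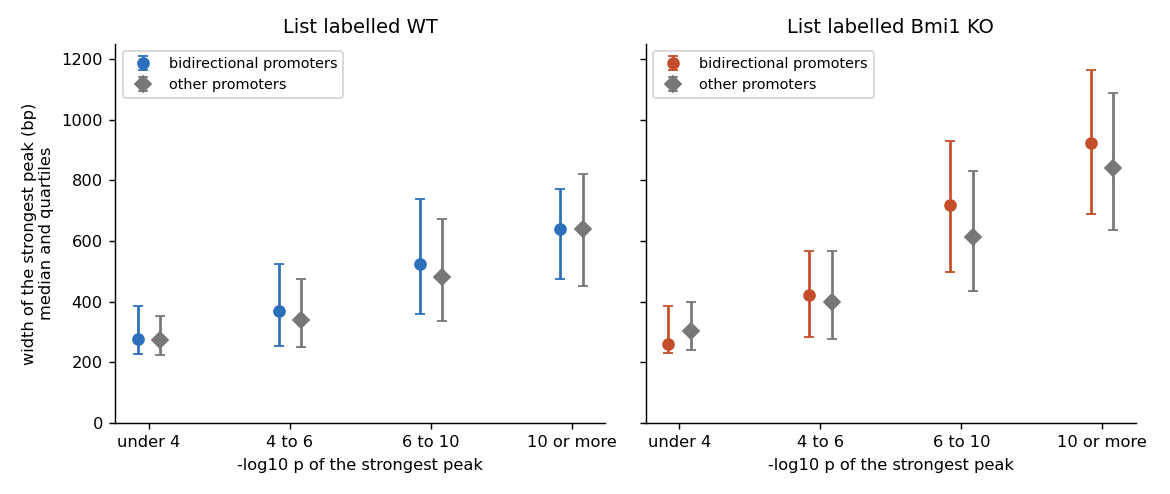
Width in bp of the strongest peak of each promoter, by its −log10 p, for bidirectional (coloured circles) and other promoters (grey diamonds) in the list labelled WT (left) and the list labelled Bmi1-/- (right); symbols are medians and bars run from the lower to the upper quartile. From the weakest to the strongest class the medians rose from 276 and 274 bp to 638 bp in the WT list, and from 260 and 303 bp to 924 and 842 bp in the Bmi1-/- list.

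A single peak often spanned both genes' starts. In the WT list 1 peak covered both 5′ ends at 285 pairs, 37.8% of all 754 (34.3% to 41.4%), and in the Bmi1-/- list at 491, 65.1% (61.6% to 68.5%). Separate peaks over each 5′ end were rare, at 8 and 11 pairs. Where only 1 of the 5′ ends lay under a peak, it was that of the minus-strand gene at 68 pairs and of the plus-strand gene at 71 in the WT list, and 54 and 47 in the Bmi1-/- list, with overlapping intervals for the strands in each list (10.1% to 16% and 10.6% to 16.6% of the pairs with a WT peak, 6.22% to 10.6% and 5.29% to 9.37% with a Bmi1-/- peak). At 97 pairs with a WT peak (18.3%) and 56 with a Bmi1-/- peak (8.50%), the peak covered neither 5′ end and lay in a flank or between the genes. The share of pairs with 1 peak over both ends fell with distance, from 44.5% at 1 to 50 bp to 10.0% at 501 to 1000 bp in the WT list, and from 71.9% to 22.9% in the Bmi1-/- list. To cover both ends a peak must be longer than the distance between them, so that a fall with distance is built into this measure. No like measure was taken at other promoters. The peaks of the Bmi1-/- list were also the wider.

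The summits, the positions of highest signal, lay about evenly on both sides of the middle of the pair. The median distance from the midpoint between the 5′ ends was 146 bp in the WT list and 120 bp in the Bmi1-/- list, whereas the summits of other promoters lay a median of 184 and 165 bp from their 5′ end. Within 100 bp of the midpoint were 38.0% of the 529 summits (33.8% to 42.3%) and 46.0% of the 659 (42.1% to 49.9%), against 31.3% and 34.4% within 100 bp of the 5′ end at other promoters. Within 100 bp of the nearer 5′ end were 53.5% and 56.8%. A summit can meet this at either end of a pair, so that these shares are not comparable with those of the other promoters. The summit fell between the 5′ ends at 33.8% and 37.2% of the pairs with a peak, while the gap took up on average 14.4% of the region. In pairs 1 to 50 bp apart it did so at 5.95% (5 of 84) and 13.2% (14 of 106), where the gap was 3.04% of the region. In pairs 201 to 300 bp apart it did so at 53.5% (38 of 71) and 54.7% (47 of 86), where the gap was 19.7% of the region. The rest divided about evenly, with 34.4% of the WT summits in the minus-strand gene and 31.8% in the plus-strand gene, and 32.6% and 30.2% of the Bmi1-/- summits. At other promoters 39.2% and 39.9% of the summits lay upstream of the 5′ end, and the remainder in the gene.

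**Figure D4:**
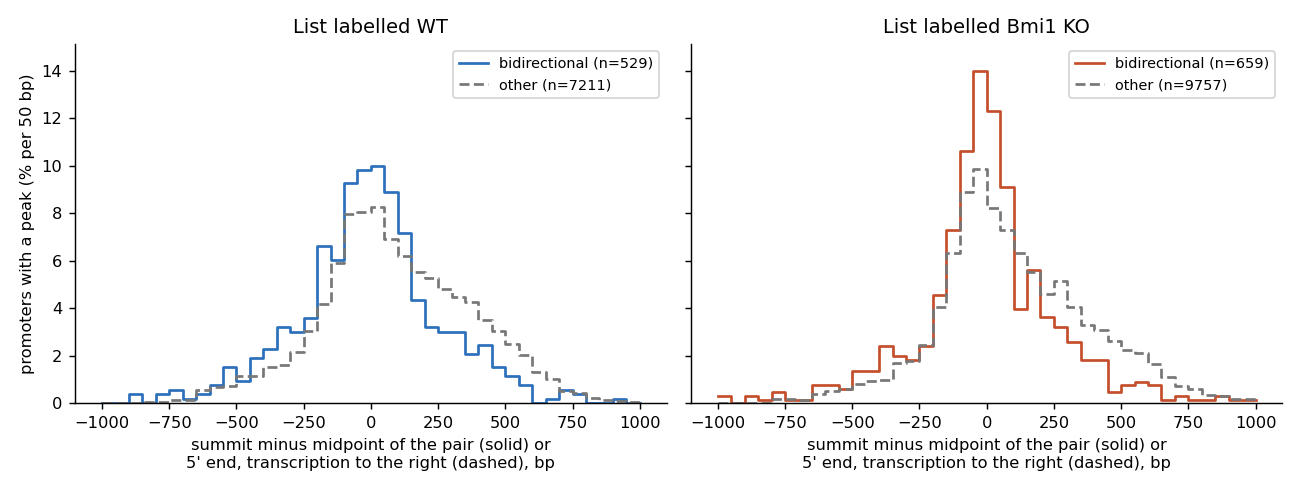
Position of the summit of the strongest peak, in bp, relative to the midpoint between the 5′ ends of bidirectional pairs (solid) or to the 5′ end of other promoters with transcription to the right (dashed), as percent of the promoters with a peak in each 50 bp, for the lists labelled WT (left) and Bmi1-/- (right). The bidirectional summits lie about evenly on both sides of the midpoint, whereas those of the other promoters reach farther into the gene.

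Peaks at bidirectional promoters were shared between the lists more often than other peaks. Of the 612 WT peaks at these regions, 565 overlapped a Bmi1-/- peak by at least 1 bp, or 92.3% (89.9% to 94.3%), against 80.4% of the WT peaks at other promoters and 18% of the remaining peaks. Of the 735 Bmi1-/- peaks, 515 overlapped a WT peak, or 70.1% (66.6% to 73.4%), against 57.8% and 13.5%. Stronger peaks overlap more often, and the order was kept at like strength: at a −log10 p of 4 to 6, 90.2% of the WT peaks at bidirectional promoters, 78.2% at other promoters and 18.1% elsewhere overlapped. For the Bmi1-/- list at the same strength the shares were 47.2%, 42.7% and 14.0%, and the intervals of the first 2 overlapped (39.6% to 54.8% and 40.9% to 44.4%). In the 509 pairs with a peak in both lists, the strongest peaks overlapped at 471 (92.5%) and their summits lay a median of 110 bp apart (quartiles 39 and 290 bp).

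In these 509 pairs the Bmi1-/- peak was the wider at 426 (83.7%, 80.2% to 86.8%), against 76.4% of the 6162 other promoters with a peak in both lists. Its median excess was 249 bp, against 181 bp at the others. Only the strongest peak of each list was compared. Several peaks were found at 17.8% of the pairs with a WT peak and 14.6% of those with a Bmi1-/- peak. Ranked by strength within its own list, with an absent peak counted as the lowest, the peak stood higher in the Bmi1-/- list at 523 of 679 pairs with a peak in either list (77.0%, 73.7% to 80.1%), against 72.7% of the others. The lists differ in length and background, and an absent peak fixes the direction, so that these shares are no measure of a change. In the pairs with both peaks 73.3% ranked higher in the Bmi1-/- list, against 69.2% of the others, and the median difference was 3.53 percentile points, against 5.53 at the others.

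**Figure D5:**
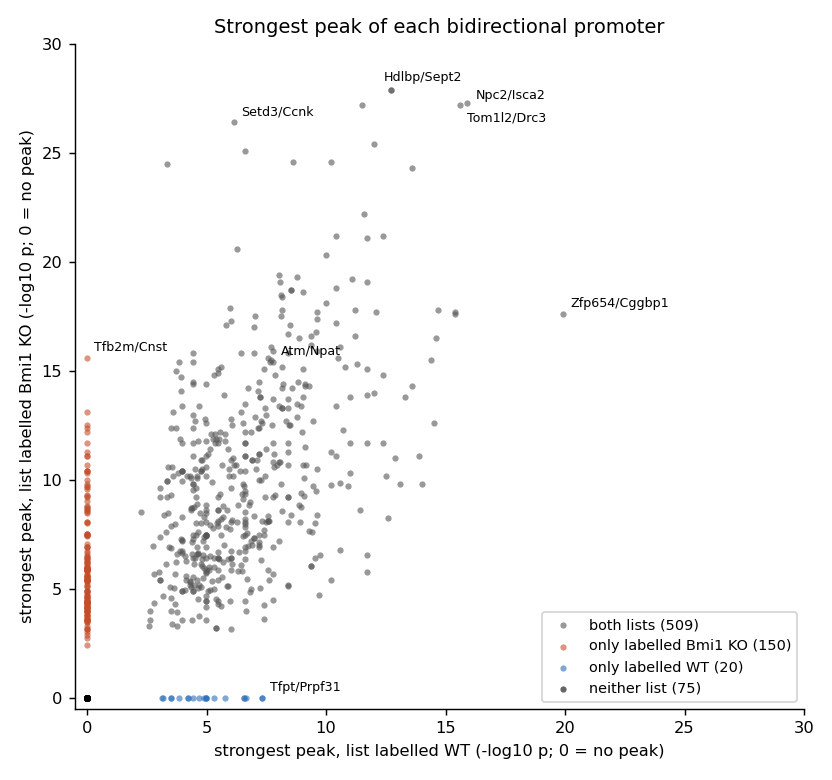
Strongest peak at each of the 754 bidirectional promoters, as −log10 p in the list labelled WT (horizontal axis) and in the list labelled Bmi1-/- (vertical axis), each on the scale of its own library, with 0 where no peak was called. Grey points are the 509 pairs with a peak in both lists, orange the 150 with a peak in the Bmi1-/- list alone, blue the 20 in the WT list alone and black, at the origin, the 75 in neither.

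The strongest peak of the WT list at a bidirectional promoter was that of Zfp654/Cggbp1, whose genes encode a zinc finger protein and a protein that binds CGG repeats. Its −log10 p was 19.9 at a fold enrichment of 5.42 over 574 bp, and the Bmi1-/- peak had 17.6 and 4.58 over 1998 bp, the widest at any pair. Npc2, a lysosomal cholesterol-binding protein, and Isca2, which takes part in mitochondrial iron-sulfur cluster assembly, shared peaks of 15.9 and 27.3, at the 99.7th and 99.9th percentile. The pileup at the summit was 38 reads in the WT list and 60 in the Bmi1-/- list. Tom1l2/Drc3, with a gene for an endosomal adaptor and one for a dynein regulatory complex subunit of motile cilia, had 15.6 and 27.2. Ccnb1ip1, a ligase of meiotic crossovers, and Parp2, a poly(ADP-ribose) polymerase of DNA repair, had 15.4 and 17.6 with peaks of 521 and 478 bp over both 5′ ends.

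The strongest in the Bmi1-/- list was Hdlbp/Sept2, with the genes of the RNA-binding protein vigilin and of a cytoskeletal septin. Its −log10 p was 27.9 there, in the only peak, of 1512 bp, and 12.7 in the WT list, in the stronger of 2 peaks, of 630 bp. Fkbp15/Slc31a1, the latter the high-affinity copper transporter, had 27.2 and 11.5. Here too the WT list had 2 peaks and the Bmi1-/- list 1. Setd3, the actin histidine methyltransferase, and Ccnk, the cyclin of CDK12 and CDK13, had 26.4 and 6.16, and the WT peak of 687 bp reached the 5′ end of Setd3 but not that of Ccnk, while the Bmi1-/- peak of 1370 bp covered both. The widest peaks of the WT list were at Tomm6/Frs3 (1465 bp), Cep170/Sdccag8 (1402 bp), a pair of genes for centrosomal proteins, and Cdca2/Kctd9 (1387 bp). Among the widest of the Bmi1-/- list were those at Zfp654/Cggbp1 and Cep57/Fam76b (1928 bp).

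Pairs with a peak in 1 list alone had weaker peaks. The 20 pairs of the WT list had a median −log10 p of 4.93, and none had a −log10 q of 5. The highest value, 7.34, was that of Tfpt/Prpf31, with genes for an INO80 subunit and a splicing factor, whose peak lay inside Prpf31 and covered neither 5′ end. Tsc2, whose product restrains mTORC1, and Nthl1, a base excision repair glycosylase, had a peak of 7.30. It was followed by Rmnd1/Armt1 (6.63), 1300017J02Rik/Topbp1 (6.56; Topbp1 acts in the replication checkpoint) and Spaca9/Ak8 (6.56). The peak at Spaca9/Ak8 lay on the side of Spaca9 and covered neither 5′ end. The 150 pairs of the Bmi1-/- list alone had a median of 5.57, below the 9.64 of the pairs with a peak in both lists, and 26 of them had a −log10 q of at least 5. The strongest were Tfb2m/Cnst (15.6), Wrn/Purg (13.1), Rnf5/Agpat1 (12.5), Fam90a1b/Apoo on the X chromosome (12.4) and Klhl18/Kif9 (12.2). Tfb2m is a mitochondrial transcription factor, Wrn a RecQ helicase, Rnf5 a ubiquitin ligase of the endoplasmic reticulum and Apoo a subunit of the mitochondrial contact site complex. These absences rest on 1 library each and on its depth.

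Of the pairs that hold a gene from a list of well-known bidirectional promoters, 10 met the rule, and 8 had a peak in each list, or 80%, near the 70.2% and 87.4% of all pairs. Of the 26 promoters of genes of that list outside the pairs, 76.9% and 96.2% had one. Atm, the kinase of double-strand breaks, and Npat, an activator of histone genes, had a −log10 p of 7.79 in the WT list and 15.4 in the Bmi1-/- list. Brca1 of homologous recombination and Nbr1, an autophagy receptor, had 5.49 and 14.9. This WT peak lay downstream of the 5′ end of Nbr1 and covered neither 5′ end. The Bmi1-/- peak covered both, but in both lists the summit lay outside the region. The chaperonin gene Cct3 with Tsacc had 12.4 and 14.8. Mcm4 of the replicative helicase and Prkdc, the catalytic subunit of DNA-PK, had 6.25 and 10.7. Gart of purine synthesis and Son, a splicing cofactor, had 7.19 and 7.14. The WT peak spanned both 5′ ends, while the stronger of 2 Bmi1-/- peaks lay downstream of the 5′ end of Son and covered neither. The proteasome gene Psmb1 with Tbp, the TATA-binding protein, had a peak in the Bmi1-/- list alone (4.44), and C2/Ehmt2, with a complement gene and the gene of the methyltransferase G9a, in the WT list alone (4.69). Wrap53/Trp53 had none in either.

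Hearing genes were few among the members. Prkra/Pjvk, the latter the gene of pejvakin, in which mutations cause deafness, had peaks of 1024 bp (−log10 p 9.62) in the WT list and 1612 bp (17.7) in the Bmi1-/- list. Kars, a lysyl-tRNA synthetase linked to deafness, with Terf2ip, a telomere protein, had a weak WT peak (3.50, at the 23.3rd percentile) and one of 6.88 in the Bmi1-/- list. That WT peak lay downstream of the 5′ end of Terf2ip and covered neither 5′ end. Elmod3/Retsat, the former also linked to deafness, had no peak. The other 119 hearing genes, which are not members, had a promoter peak in 43.7% and 50.4% of cases.

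Gene groups of housekeeping function are read here against the 70.2% and 87.4% of all pairs, and beside the genes of the same list outside the pairs. Among 59 pairs with a gene of DNA replication and repair, 46 had a WT peak (78.0%, 65.3% to 87.7%) and 55 a Bmi1-/- peak (93.2%, 83.5% to 98.1%), while the genes of the same list outside the pairs had 58.6% and 80.2%. Ccnb1ip1/Parp2 and Mms19/Ubtd1 (8.77 and 19.3) were strongest, and Eme2/Mrps34 and Ribc1/Smc1a had no peak. Among 19 cell cycle pairs 16 (84.2%) and 19 (100%) had a peak, against 71.7% and 81.8% of the cell cycle genes outside the pairs. Cdca2/Kctd9 (11.6 and 22.2) was the strongest, and Tatdn3/Nsl1 had no WT peak and 3.16 in the Bmi1-/- list. Of 48 mitochondrial pairs, 29 (60.4%, 45.3% to 74.2%) and 44 (91.7%, 80.0% to 97.7%) had one, with intervals that included the shares of all pairs. Outside the pairs the shares were 52% and 70.6%. The strongest were Ptcd2/Mrps27 (7.71 and 15.5) and Ndufa5/Asb15 (10.2 and 11.3), and Mrpl54/Apba3 and Rps28/Ndufa7 had none. Of 14 proteasome and ubiquitin pairs 11 (78.6%) and 13 (92.9%) did, led by BC005624/Usp20 (13.6 and 24.3), against 56.1% and 70.5% outside the pairs. Of 23 zinc finger pairs 15 (65.2%, 42.7% to 83.6%) and 19 (82.6%, 61.2% to 95%) did, against 38.6% and 62.1% outside the pairs. These intervals also included the shares of all pairs. Zfp142/Bcs1l (10.2 and 24.6) came next to Zfp654/Cggbp1, and Zfp942/Zfp943 and Zfp944/Zfp758 were without a peak. Since the genes of a list differ in CpG content, 91.5% of the repair pairs were CpG-rich but 75.9% of the genes of that list outside the pairs, these shares are given as a description.

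Histone pairs stood at the other end. Replication-dependent histone genes lie in clusters, often as head-to-head H2a/H2b pairs, and are transcribed in S phase. The members held 14 pairs with a histone gene, most of them H2a/H2b pairs, but also Bola1/Hist2h2ab and Hist1h2bh/Hist1h3f. Of these 14, 3 had a WT peak (21.4%, 4.66% to 50.8%) and 6 a Bmi1-/- peak (42.9%, 17.7% to 71.1%), although 92.9% of them were CpG-rich. None had a −log10 q of 5 in either list. Hist1h2ac/Hist1h2bc was the strongest (6.61 and 8.05), followed by Hist1h2ag/Hist1h2bj (3.96 and 6.74), and 7 pairs had no peak. The 40 histone genes outside pairs were at 10.0% and 32.5%. Histone genes are near-identical copies of each other, and whether this affects their values was not tested. Col4a4/Col4a3, the collagen IV pair of basement membranes that met the rule, had no peak in either list and was not CpG-rich.

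Motif letters that are typical of such promoters were more frequent than at other promoters. The 8 motifs were searched on both strands in 300 bp in both sets. At a pair this was 150 bp each side of the midpoint, and at other promoters 250 bp before to 50 bp after the 5′ end. The window of a close pair holds both 5′ ends and DNA of both genes, so that the windows differ in content. None of the 8 contains another. The ETS motif CCGGAAGT was found at 12.9% of the pairs and 4.10% of the others, the YY1 motif AAGATGGCG at 5.84% and 1.41%, and the ZBTB33 motif TCTCGCGA at 5.17% and 1.10%. NRF1 (CGCATGCG) was at 5.04% and 2.42%, CRE (TGACGTCA) at 4.38% and 2.28%, SP1 (GGGCGG) at 68.0% and 41.1%, and NFY (CCAAT) at 44.8% and 38.7%. TATAAA was the less frequent at pairs, with 4.38% against 13.3%. Between the 5′ ends alone, ETS was found at 6.76% of the pairs, YY1 at 0.796% and ZBTB33 at 3.85%. For NRF1, CRE and TATAAA it was 3.58%, 2.52% and 3.98%. That stretch is shorter than the window in most pairs. Among CpG-rich promoters alone, ETS (13.4% and 7.61%), YY1 (6.37% and 2.73%) and ZBTB33 (5.41% and 2.30%) had intervals that did not overlap. The same held for NFY (45.4% and 37%) and, with fewer at pairs, for TATAAA (3.66% and 6.14%). Those of SP1 (73.1% and 71.5%), NRF1 (6.05% and 4.04%) and CRE (4.94% and 3.67%) overlapped. Pairs with a TATAAA match had a peak in 42.4% and 60.6% of cases, against 71.4% and 88.6% without. Pairs with an ETS match had one in 69.1% and 90.7%, against 70.3% and 86.9% without. A match says that these letters are present, and not that a factor binds.

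The 75 pairs without a peak in either list were less often CpG-rich. Of these 75, 37 (49.3%, 37.6% to 61.1%) were CpG-rich, against 462 of the 509 pairs with a peak in both lists (90.8%, 87.9% to 93.1%). Their median CpG ratio was 0.645, against 0.799. The pairs without a peak also held 7 of the 14 histone pairs and 4 of 8 pairs with a ribosomal protein gene, and 11 had a provisional gene name, against 49 of the 509.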

How the data were processed

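ATAC-seq was measured in 1 library per genotype, with the genotype taken from the labels. The authors called peaks in each library and deposited narrowPeak lists. The submitters' processing notes name FastQC, BWA, MACS2, HOMER and the build mm10, and versions and options are not given in the sources used here. The deposited fold enrichment is the ratio pileup/background at the summit, each raised by a pseudocount of 1. The authors' deposited −log10 p and −log10 q are those of the summit, and the deposited score and the remaining columns were not used for values. Summit pileups and backgrounds were solved from fold and −log10 p, which gave a whole pileup (−log10 p recovered within 1%) for 100% of the peaks.

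Regions and peaks (1-based, overlap of at least 1 bp) were compared with Python 3.11.15, numpy 2.4.6, pandas 2.3.3, scipy 1.17.1 and pysam 0.24.0, checked with bedtools 2.31.1 and tested on simulated data. Plots used matplotlib 3.10.9. Percentiles are ranks by −log10 p within a list. Sequences are those of the RefSeq GRCm38 genome. Shares have exact binomial and differences Newcombe 95% intervals, and no p-value is given. Pairs were named by rule: the 5 strongest and 3 widest peaks of each list, the 5 strongest without a peak in the other, and well-known and hearing pairs, with the extremes of other gene lists. Some pairs that the rule names are not reported here. The members, lists and motifs were chosen with earlier results of these data known. RNA-seq and ChIP-seq were not analysed here.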

Additional observations from a re-analysis of the deposited data

How the results depend on the processing

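The difference between bidirectional and other promoters kept its sign in every setting where it was taken. Shares and widths cannot change sign, so that this check does not apply to them. No paired analysis was possible because there is 1 library per genotype and the labels give no replicate numbers. With peaks of −log10 q of at least 5 alone, the share of pairs with a peak was 10.7% in the WT list and 41.2% in the Bmi1-/- list, the difference from other promoters 7.86 and 27.8 points, the median width 638 and 904 bp, the share with 1 peak over both 5′ ends 7.82% and 36.7%, and the overlap with all peaks of the other list 100% and 91.5%. A reciprocal overlap of at least 50% gave 47.5% and 39.7%. With 5′ ends at most 300 bp apart, 1 peak covered both at 42.4% and 70.1%. Among CpG-rich promoters the difference was 12 and 8.10 points. With the summit inside the region it was 42.5 points in the Bmi1-/- list. In alternatives chosen after seeing the data, it was 30.8 and 33.7 points without provisional names, histone and receptor clusters. The other 29 values moved by less than their interval. They came from lists of equal length, a fixed 1 kb window, the RefSeq annotation (752 pairs) and each gene's own 5′ end (68.5% and 86.2%) among others. With lists of equal length the WT list keeps all its peaks, so that its share, difference and width could not move. Of the 28 named pairs with a peak, 12 in the WT list and 24 in the Bmi1-/- list kept a peak at that threshold, the −log10 q of 5.

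The limits are those of the design. With 1 pooled library per genotype, differences between the lists cannot be told apart from differences between libraries, and depth was known from the solved background alone. A pair without a peak had none detectable at this depth. The annotated 5′ ends are gene starts of GENCODE and were not measured in this tissue.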

Other observations

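Bidirectional promoters on the X chromosome were called less often than those on autosomes. Of 20 such pairs, 4 had a WT peak (20%, exact binomial 95% interval 5.73% to 43.7%) and 12 a Bmi1-/- peak (60%, 36.1% to 80.9%), against 71.5% and 88.1% of the 734 autosomal pairs. The same was seen at the other promoters, with 10.2% and 19.5% of 909 on the X chromosome against 36.8% and 49.5% of 19347 on autosomes. The X chromosome held 0.628% of all WT peaks and 0.721% of all Bmi1-/- peaks. Fam3a/Ikbkg, the latter a subunit of the kinase that activates NF-κB, had the strongest WT peak among these 20 pairs (−log10 p 8.41, and 8.05 in the Bmi1-/- list).

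Pairs with a ribosomal protein gene were often without a peak, although these genes are active in all cells. Of 8 such members, 2 had a WT peak and 4 a Bmi1-/- peak, against 70.2% and 87.4% of all pairs. Some crossed pairs with such a gene, which are not members, had a peak in both lists. These were Rpl15/Nkiras1 (7.99 and 13.9), Rps18/Vps52 (8.42 and 4.71), Rpl3/Syngr1 (4.38 and 5.43) and Rps27a/Clhc1 (3.96 and 6.41). The crossed pairs with such a gene were not counted as a set. Among the members the values were as follows. Rpl9/Lias had 4.33 and 10.1, and Iqcg/Rpl35a 6.63 and 3.97. Rps27/Rab13 (4.56) and Med22/Rpl7a (3.72) had one in the Bmi1-/- list alone, and Polr3a/Rps24, Rnf151/Rps2, Rps28/Ndufa7 and Zwilch/Rpl4 had none. Ribosomal protein genes have many processed copies in the genome, and whether this affects these values was not tested.

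The mitochondrial chaperonin genes Hspd1 and Hspe1, a textbook head-to-head pair, overlap by 111 bp at their annotated 5′ ends and are not members. Their region had 2 peaks in the WT list, the stronger with a −log10 p of 4.37, and 1 in the Bmi1-/- list with 18.5. Both groups of pairs were chosen after their values were seen.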
